A study of Homo sapiens with 27 samples.

Results

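The nuclear-encoded subunits of the respiratory chain and ATP synthase were taken from 3′ end RNA-seq of 501mel, an established human melanoma cell line. Members were the rows whose symbol begins with NDUFA, NDUFB, NDUFC, NDUFS or NDUFV and a number, is SDHA to SDHD, or begins with UQCR, COX4 to COX8 or ATP5. Of 13523 genes, 82 matched by symbol, 1 pseudogene was left out and 81 members remained. They comprised 36 genes of complex I, 4 of complex II, 8 of complex III, 11 of complex IV, in which NDUFA4 is counted here, and 15 of complex V. The other 7 genes matched by name but are no established subunit: ATP5L2, ATP5S, ATP5SL, COX7A2L, COX7B2, UQCRHL and NDUFB2-AS1. The rule uses symbols and no measured value, though the members were chosen with earlier results of these data known.

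WT cells were untreated, kept for 12 h in HBSS, a salt solution without amino acids or serum, or given 250 nM of the mTOR inhibitor Torin1 for 12 h. TFE3 KO, TFEB KO and double knockout (DKO) cells were controls or were given 250 nM Torin1 for 12 h. The control libraries are labelled as non-treated in WT and as a 12 h control in the knockouts, and both kinds are called untreated below. The labels give DMEM with serum as the growth medium, whereas the methods of the study name RPMI for nearly all its human melanoma lines. Each knockout is 1 clone made with Cas9 protein and guide RNA, so that genotype, clone and, against WT, the kind of control cannot be told apart. Each group has 3 libraries by its labels, but the columns of HBSS replicate 3 and WT Torin1 replicate 1 hold identical values in all 13523 genes and were left out, which leaves 2 libraries in each of these 2 groups and 25 in all.

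The respiratory chain passes electrons from NADH through complex I, or from succinate through complex II, by way of ubiquinone to complex III, then cytochrome c and complex IV to oxygen. Complexes I, III and IV pump protons, and complex V, the ATP synthase, uses the gradient to make ATP. Most subunits are encoded in the nucleus, and genes of this group are known targets of NRF1, of the ETS factor GABPA and of the coactivator PPARGC1A. TFE3 and TFEB are transcription factors that mTORC1 keeps in the cytoplasm, and loss of amino acids or inhibition of mTOR lets them enter the nucleus.

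Values are the deposited normalised expression. Each library held 4147050 to 6526392 reads, and 3 reads corresponded to a value of 0.460 to 0.711. TFE3 was at 23.8 to 24.3 in untreated WT, at 5.06, 6.24 and 7.59 in untreated TFE3 KO, and at 5.93, 6.26 and 6.86 in untreated DKO. TFEB was at 2.34, 3.45 and 3.96 in untreated WT and at 0.750, 0.911 and 1.66 in untreated TFEB KO, near the level that 3 reads give. TFEB was also at 0.177, 0.307 and 1.56 in untreated TFE3 KO, and at 0.156, 0.783 and 1.05 in untreated DKO. The 3′ reads need not cover the edited part of either gene. The 7 melanocyte markers looked for (MITF, SOX10, PMEL, MLANA, TYR, DCT and TYRP1) were at 123 or more in every library, and of 10 markers of other cells 1 was measured, COL1A1, at 0 to 5.06. The labels do not say that libraries came from separate cultures, so p-values measure the spread between libraries, which may be technical. A lower level in every cell and a lower level in part of the cells cannot be told apart in bulk RNA.

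The subunit genes were among the more abundant transcripts of untreated WT cells. Because each transcript gives reads at its 3′ end, levels were compared between genes without division by length. The median WT level of the 74 established subunits was 197 against 19.6 for all 13052 genes tested, and 73 of the 74 lay above the latter. The complexes had medians of 128 (complex I), 113 (complex II), 245 (complex III), 380 (complex IV) and 281 (complex V). The highest means were those of UQCRH, the hinge protein of complex III, at 1080, ATP5L, subunit g of ATP synthase, at 842, and ATP5G2, which encodes the rotor subunit c, at 837. The exception below the median was SDHD, a membrane anchor of complex II, at 7.76. ATP5L2, NDUFB2-AS1, COX7B2 and UQCRHL were at 2.30, 2.52, 2.55 and 5.16, so their fold changes rest on few reads. Annotation of hg38 lists pseudogene copies for 48 members, 187 in all and 17 for COX6C alone, and how reads shared with such copies were counted is not given in the sources used here.

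As a group, the 74 subunits took up less of the library under Torin1 in every genotype. Their share of reads was 1.96 to 2.22% in the 3 untreated WT libraries and 1.70 and 1.73% in the 2 WT libraries with Torin1. It went from 2.03 to 2.12% without to 1.69 to 1.84% with Torin1 in TFE3 KO, from 1.84 to 1.93% to 1.63 to 1.68% in TFEB KO, and from 2.06 to 2.28% to 1.81 to 1.84% in DKO. The libraries with and without Torin1 did not overlap in any genotype. The 2 HBSS libraries, at 1.97% each, lay within the range of untreated WT.

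**Figure D1:**
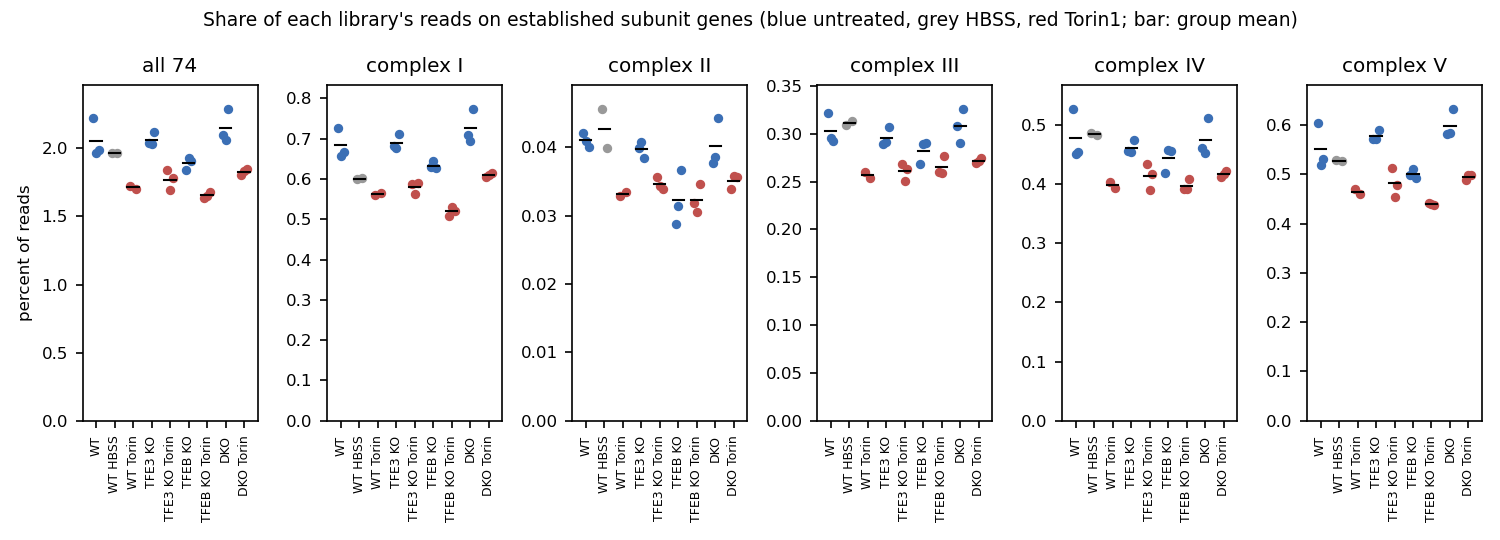
Percent of each library's reads on the 74 established subunit genes and on those of each complex, by group. Points are libraries and bars are group means. Torin1 libraries lie below the untreated libraries of their genotype for all 74 genes, and untreated TFEB KO, at 1.84 to 1.93%, lies below untreated WT, at 1.96 to 2.22%.

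The start regions of these genes were searched for factor motifs. RefSeq windows (GRCh38.p14) from 250 bases before to 50 bases after each start were matched for 66 members. Members without a window analysed here included NDUFS5, NDUFB5, NDUFB9, NDUFC2, SDHC, UQCRB, COX6C, ATP5B, ATP5D, ATP5G3, ATP5J2, ATP5L2, ATP5S and UQCRHL. On either strand, the NRF1 motif GCGCATGC was found in 14 of 66 members (21.2%), against 3.68% of 27305 genes with a window and 6.48% of the 9664 of these that were tested. The ETS motif CCGGAAG, the kind bound by GABPA, was found in 20 members (30.3%), against 12.2% of all and 22.5% of tested genes. The YY1 motif AAGATGGC was found in 12 (18.2%), against 3.52% and 6.71%. At least one of these motifs was in 36 members (54.5%), against 17.6% and 31.7%. The CRE motif TGACGTCA was found in 5 members (7.58%), against 2.25% of all and 3.91% of tested genes, and the ATF4 motif TGATGNAA in 2 (3.03%), against 4.46% and 2.81%. The E-box CACGTG, the core of the sequence that TFE3, TFEB and MITF bind, was in 8 members (12.1%), against 8.77% of all and 12.9% of tested genes. The longer M-box TCACGTG, which contains the E-box, was in 3 (4.55%), against 4.49% and 7.47%. A match describes letters in a window and is no evidence of binding.

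Stretches before the start are shown for 2 genes of subunit c, ATP5G1 and ATP5G2, and for NDUFS6, because these moved most or in opposite directions below, and for SDHB and COX5B as members with several motifs. Motif letters are in capitals. ATP5G1 (ATP5MC1, chr17:48892545-48892764, plus strand, bases -242 to -23 from the start) holds a CRE from base -57. ATP5G2 (ATP5MC2, chr12:53676370-53676399, minus strand, -69 to -40) and NDUFS6 (chr5:1801350-1801379, plus strand, -57 to -28) each hold an NRF1 motif, from -58 and -46. SDHB, the iron-sulfur subunit of complex II (chr1:17054033-17054252, minus strand, -220 to -1), holds a reverse NRF1 and an ETS motif, from -200 and -128. COX5B, a subunit of complex IV (chr2:97645842-97646061, plus strand, -220 to -1), holds the same pair from -136 and -37. Outside the stretches shown, the windows also hold an E-box from base 5 in ATP5G1 and an ATF4 motif from -231 in NDUFS6. That of SDHB also holds a YY1 motif from 11 and a CRE from -4, and that of COX5B another ETS motif from -5. All 30 bases shown for ATP5G2 and 17 of the 30 for NDUFS6 lie in annotated exons.
ATP5G1: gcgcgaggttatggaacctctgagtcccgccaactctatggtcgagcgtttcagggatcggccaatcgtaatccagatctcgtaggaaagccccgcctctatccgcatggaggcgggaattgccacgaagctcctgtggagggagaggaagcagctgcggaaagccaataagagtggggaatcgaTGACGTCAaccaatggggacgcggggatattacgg
ATP5G2: gtgtgacgactGCGCATGCtcggaaagggg
NDUFS6: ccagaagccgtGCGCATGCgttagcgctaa
SDHB: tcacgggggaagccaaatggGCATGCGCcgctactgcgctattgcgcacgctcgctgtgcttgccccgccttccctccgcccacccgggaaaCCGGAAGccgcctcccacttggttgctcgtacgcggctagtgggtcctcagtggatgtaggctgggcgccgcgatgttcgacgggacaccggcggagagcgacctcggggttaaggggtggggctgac
COX5B: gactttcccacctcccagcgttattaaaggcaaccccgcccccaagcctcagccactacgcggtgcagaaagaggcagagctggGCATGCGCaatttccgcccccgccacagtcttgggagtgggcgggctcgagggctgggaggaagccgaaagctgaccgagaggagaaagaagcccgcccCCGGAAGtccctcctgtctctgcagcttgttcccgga

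Torin1 lowered a large share of the members in each of the 4 genotypes. Past the test means an adjusted p under 0.05 over all 13052 genes, and log2 fold changes are those of value + 1, with their SE. The shares over all genes are not matched for abundance, and nearly all established subunits lie above the median gene in level. In WT 41 of 81 members were lower (50.6%), against 23.4% of all genes tested, and 3 were higher (NDUFV1, ATP5G2 and ATP5L2), against 20.5%. ATP5L2 rests on few reads, at 1.97, 3.76 and 1.17 without and 6.33 and 3.79 with Torin1. In TFE3 KO 36 were lower (44.4%), against 26% of all genes, and 5 higher, against 25.4%. In TFEB KO 42 were lower (51.9%), against 21%, and 5 higher, against 17.4%. In DKO 38 were lower (46.9%), against 26.2%, and 3 higher, against 25.4%. The median log2 fold change of the members was -0.25 in WT, -0.17 in TFE3 KO, -0.22 in TFEB KO and -0.23 in DKO, where the medians over all genes lay between 0.00 and 0.02. With the duplicated column counted as WT Torin1, 21 members were lower in WT and 3 higher. For the genes listed at the end, that column lay nearer the HBSS libraries than the Torin1 libraries.

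The changes were mostly modest in size. Members past the test that changed by 1 or more on the log2 scale numbered 4 in WT (NDUFS6, NDUFB6, NDUFC2 and ATP5G1, all lower), against 9.66% of all genes. They numbered 3 in TFE3 KO (NDUFS6, UQCRFS1 and ATP5G1, all lower), against 11.7%, and 2 in DKO (NDUFS6 and ATP5G1, both lower), against 11.1%. In TFEB KO there was 1, against 5.02%, the intronless UQCRH copy UQCRHL, which was higher at 7.59, 3.61 and 6.72 against 1.14, 2.06 and 4.48 and was past the test in neither edgeR nor DESeq2. The groups overlapped.

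The 4 comparisons share no library. Lower in all 4 genotypes were 29 of 81 members (35.8%), against 14.2% of all genes tested. Lower in none were 28 members (34.6%), against 64.9% of all genes. No member was higher in all 4, against 10.6% of all genes. None was past the test in opposite directions in different genotypes, which was also rare over all genes (0.375%). The 29, named here because of their calls, were NDUFA1, NDUFA3, NDUFA6, NDUFA8, NDUFA9, NDUFA11, NDUFA12, NDUFB2, NDUFB6, NDUFB10, NDUFC2, NDUFS5, NDUFS6 and NDUFS8 of complex I, SDHC of complex II, UQCR10, UQCR11, UQCRFS1 and UQCRQ of complex III, COX4I1, COX6A1, COX7B, COX8A and NDUFA4 of complex IV, and ATP5G1, ATP5G3, ATP5J, ATP5J2 and ATP5L of complex V. Higher in 3 genotypes were NDUFV1, ATP5G2 and ATP5H, and in 2 NDUFB5 and UQCRB. NDUFA5, ATP5L2 and UQCRHL were higher in 1.

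**Figure D2:**
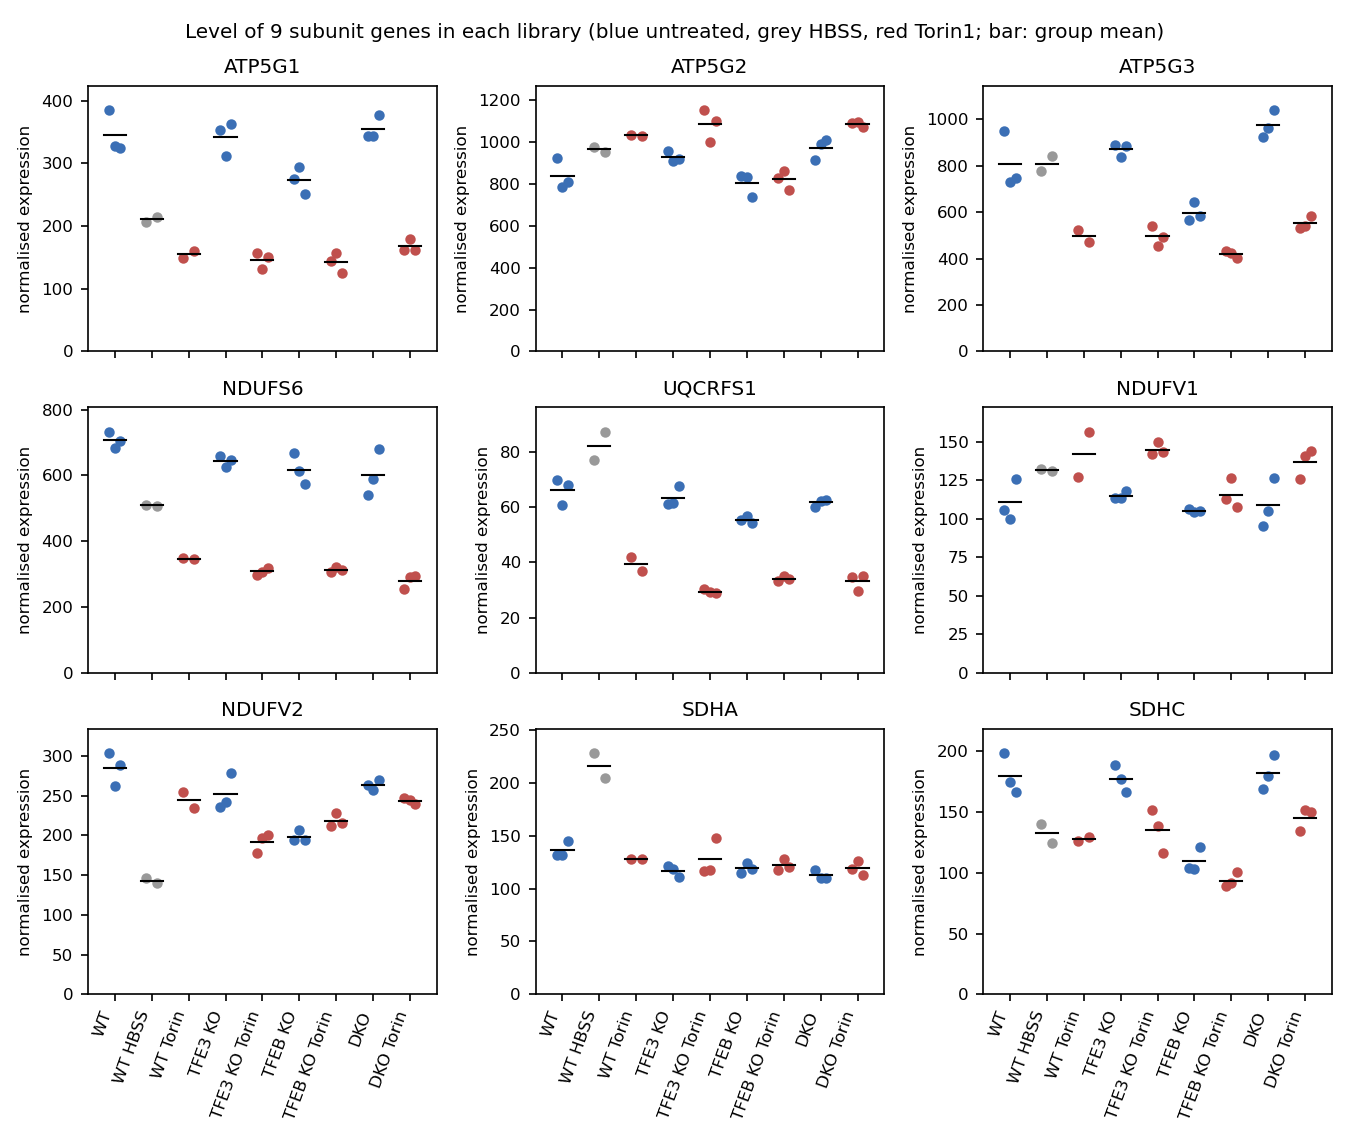
Normalised expression of 9 subunit genes in each library, with groups on the horizontal axis and bars for group means. ATP5G1, ATP5G3, NDUFS6 and UQCRFS1 are lower with Torin1 in every genotype, ATP5G2 is not, and with HBSS SDHA is higher and NDUFV2 lower than in any other group.

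The genes for subunit c of ATP synthase, which encode the same mature protein and differ in their import sequence, parted ways under Torin1. ATP5G1 was at 385, 328 and 324 in untreated WT and at 150 and 161 with Torin1. All libraries with the drug lay below all those without it, a log2 fold change of -1.15 ± 0.09 (adjusted p = 4.5e-14). The change was -1.22 ± 0.08 in TFE3 KO, -0.95 ± 0.08 in TFEB KO and -1.08 ± 0.08 in DKO. ATP5G3 was at 951, 732 and 746 without and at 524 and 471 with Torin1 in WT, again with no overlap (-0.69 ± 0.09, adjusted p = 4.1e-09). It also fell in TFE3 KO (-0.81 ± 0.08), TFEB KO (-0.51 ± 0.08) and DKO (-0.82 ± 0.08). ATP5G2 went the other way: it was at 921, 783 and 808 without and at 1035 and 1027 with Torin1 in WT, a rise of 0.30 ± 0.07 (adjusted p = 0.00073). In TFE3 KO ATP5G2 rose by 0.22 ± 0.07 (adjusted p = 0.0041). In DKO the rise was 0.16 ± 0.07 (adjusted p = 0.036), and the value in TFEB KO was 0.03 ± 0.07 (adjusted p = 0.73). ATP5G1 and ATP5G2 have 8 and 5 annotated pseudogene copies and ATP5G3 none.

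Among the other parts of ATP synthase, the head with its central stalk had the medians nearest to 0, at -0.19, -0.14, -0.11 and -0.07 in the order WT, TFE3 KO, TFEB KO, DKO, beside -0.48, -0.51, -0.48 and -0.63 for the membrane part. None of the 5 head subunits was past the test in WT, TFEB KO or DKO, and 1, ATP5D, was lower in TFE3 KO. ATP5B, the catalytic beta subunit, was at 572, 491 and 553 without and at 530 and 500 with Torin1 in WT (-0.06 ± 0.08, adjusted p = 0.56), and these libraries overlapped. ATP5A1, the alpha subunit, had a value of -0.10 ± 0.10 in WT (adjusted p = 0.45). Of the 6 membrane subunits 4 were lower in WT, 4 in TFE3 KO, 5 in TFEB KO and 5 in DKO. Of the 4 peripheral stalk subunits 3, 2, 2 and 3 were lower, against 23.4, 26, 21 and 26.2% of all genes. ATP5H, subunit d of the stalk, rose in TFE3 KO (0.25 ± 0.09), TFEB KO (0.30 ± 0.09) and DKO (0.25 ± 0.09), where the libraries overlapped in DKO, and its value in WT was 0.15 ± 0.10 (adjusted p = 0.26).

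Accessory subunits are 29 of the 36 complex I genes and made up most of its calls. Of the 29, 18 were lower with Torin1 in WT, 14 in TFE3 KO, 21 in TFEB KO and 15 in DKO. Of the 7 core subunits 2, 2, 2 and 1 were lower. The shares lower among all genes were 23.4, 26, 21 and 26.2%. Whether the classes differ was not tested. NDUFS6, an accessory subunit near the NADH-oxidising arm, was at 734, 684 and 706 in untreated WT and at 349 and 345 with Torin1. Without overlap in any genotype, it changed by -1.03 ± 0.08 in WT (adjusted p = 8.5e-15), -1.06 ± 0.07 in TFE3 KO, -0.98 ± 0.07 in TFEB KO and -1.10 ± 0.07 in DKO. NDUFC2, of the membrane arm, was at 78.6, 67.3 and 81.8 without and at 35.9 and 36.5 with Torin1 in WT (-1.04 ± 0.14, adjusted p = 3.4e-08), and changed by -0.95 ± 0.13, -0.82 ± 0.13 and -0.95 ± 0.13 in the 3 knockouts in the same order. NDUFB6, also of the membrane arm, was at 42.1, 38.2 and 32.0 without and at 14.8 and 15.6 with Torin1 in WT (-1.24 ± 0.18, adjusted p = 4e-07). In the knockouts NDUFB6 changed by -0.61 ± 0.16, -0.46 ± 0.16 and -0.63 ± 0.16, with overlapping libraries in DKO.

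NDUFV1, the core subunit that binds NADH and the flavin, rose. It was at 106, 99.8 and 126 without and at 127 and 157 with Torin1 in WT (0.36 ± 0.10, adjusted p = 0.0045), the nearest libraries lying close together. The rise in TFE3 KO was 0.33 ± 0.09 (adjusted p = 0.0024). That in DKO, where the groups overlapped at 126, was also 0.33 ± 0.09, and the value in TFEB KO was 0.13 ± 0.09 (adjusted p = 0.28). NDUFS1, a core subunit that holds iron-sulfur clusters, had a value of 0.05 ± 0.14 in WT (adjusted p = 0.80) and was past the test in no genotype. NDUFB5 rose in TFE3 KO (0.27 ± 0.10) and TFEB KO (0.32 ± 0.10), and NDUFA5 in TFEB KO (0.22 ± 0.08).

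Complex III had 5 of 8 subunits lower in WT, TFE3 KO and TFEB KO and 4 in DKO. Among all genes 23.4, 26, 21 and 26.2% were lower in these 4 genotypes. UQCRFS1, the Rieske iron-sulfur protein, was at 69.7, 60.6 and 67.9 in untreated WT and at 42.0 and 37.0 with Torin1. It fell without overlap in all genotypes, with changes of -0.73 ± 0.11 in WT (adjusted p = 7.6e-07), -1.08 ± 0.10 in TFE3 KO, -0.68 ± 0.10 in TFEB KO and -0.88 ± 0.10 in DKO. With the duplicated column, where UQCRFS1 was at 97.1, its WT call was lost (-0.30). UQCRC1, a core protein of the complex, was lower in TFEB KO only (-0.27 ± 0.09, adjusted p = 0.014), a call lost in edgeR and with equal totals, with a value of -0.03 ± 0.10 in WT (adjusted p = 0.82), and the difference between these was not past the test (adjusted p = 0.44). UQCRB rose in TFE3 KO (0.29 ± 0.07) and TFEB KO (0.21 ± 0.07).

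In complex IV no subunit rose in any genotype, and of 11 subunits 7 fell in WT, 6 in TFE3 KO, 6 in TFEB KO and 7 in DKO. Among all genes 23.4, 26, 21 and 26.2% were lower and 20.5, 25.4, 17.4 and 25.4% higher. COX4I1, the regulatory subunit in its ubiquitous form, was at 746, 658 and 704 without and at 588 and 609 with Torin1 in WT. The groups did not overlap, and the change was small (-0.23 ± 0.07, adjusted p = 0.0091). In the knockouts, in the order TFE3, TFEB, double, it was -0.17 ± 0.07, -0.30 ± 0.07 and -0.23 ± 0.07. The calls for COX4I1 in WT and TFE3 KO were lost in edgeR. COX8A changed by -0.31 ± 0.07, -0.21 ± 0.06, -0.28 ± 0.06 and -0.29 ± 0.06 in the same 4 genotypes and NDUFA4 by -0.54 ± 0.09, -0.28 ± 0.08, -0.27 ± 0.08 and -0.37 ± 0.08. COX5B fell in WT (-0.19 ± 0.08, adjusted p = 0.04) and TFEB KO (-0.18 ± 0.07, adjusted p = 0.027), calls made by neither edgeR nor DESeq2. COX6B1 and COX7A2 were past the test in no genotype, with values of -0.21 ± 0.09 (adjusted p = 0.05) and -0.19 ± 0.18 (adjusted p = 0.43) in WT. In complex II SDHC, a membrane anchor, was at 199, 174 and 166 without and at 126 and 129 with Torin1 in WT (-0.49 ± 0.10, adjusted p = 9.9e-05) and was lower in every genotype, the call in TFEB KO (-0.23 ± 0.09, adjusted p = 0.043) being lost in edgeR, in DESeq2 and with equal totals. SDHA, which oxidises succinate, was at 131, 132 and 145 without and at 128 and 128 with Torin1 in WT and was past the test in no genotype.

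The Torin1 effects were compared between genotypes. Across the 81 members, Pearson's r between the log2 fold change in WT and in the knockout was 0.878 for TFE3 KO, 0.808 for TFEB KO and 0.806 for DKO, beside 0.847, 0.796 and 0.847 over all 13052 genes. For the 74 established subunits alone r was 0.896, 0.777 and 0.914 in the same order. The members share libraries within each comparison, so these values describe the pattern only. The difference between the effects was also tested itself. For TFE3 KO no member was past this test, against 0.49% of all genes higher and 0.575% lower. At an unadjusted p under 0.05 there were 6 members, and edgeR and DESeq2 called 0. For DKO the count was also 0, against 0.314% higher and 0.192% lower, with 2 members at an unadjusted p under 0.05 and 0 in edgeR and DESeq2. For TFEB KO 1 member was called higher, against 0.812% of all genes, and 0 lower, against 0.345%. That member was COX7B, a small subunit of complex IV. It was at 393, 352 and 363 in untreated WT and at 216 and 220 with Torin1, and at 267, 316 and 315 in untreated TFEB KO and 236, 216 and 258 with Torin1. The WT change was -0.76 ± 0.08, that in TFEB KO -0.34 ± 0.07, and the difference 0.42 ± 0.11 (adjusted p = 0.036). The call was lost without either of WT replicates 1 and 3, without either WT Torin1 library, without TFEB KO replicate 1, without TFEB KO Torin1 replicate 1 or 3, and with the duplicated column.

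**Figure D3:**
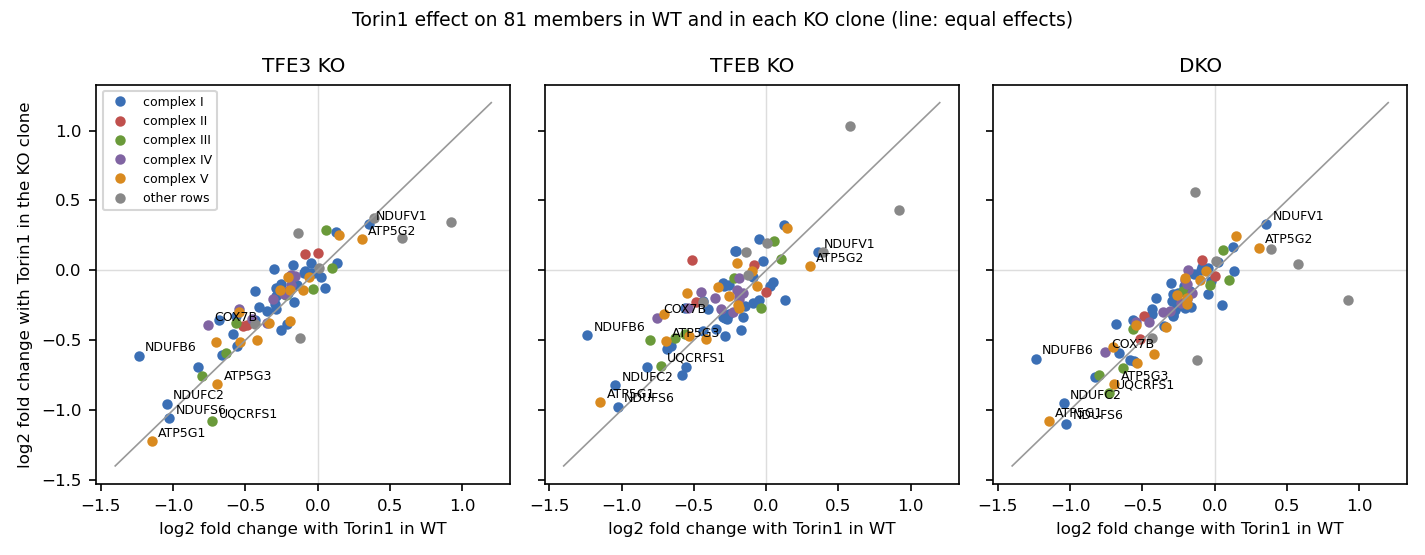
Log2 fold change of value + 1 with Torin1 in WT (horizontal axis) and in each knockout (vertical axes) for the 81 members, coloured by complex, with the line of equal effects. ATP5G1, NDUFS6 and NDUFC2 lie at the lower left and NDUFV1 and ATP5G2 above 0 in all panels.

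Other genes of the pathway were counted from lists made for this comparison. Values are given for WT first and then for the knockouts in the order TFE3, TFEB, double. Over all genes tested, 23.4, 26, 21 and 26.2% were lower with Torin1 and 20.5, 25.4, 17.4 and 25.4% higher. Of 6 subunits and associated factors with names outside the rule (NDUFAB1, CYC1, ATPIF1, USMG5, C14orf2 and C7orf55) 5 were lower with Torin1 in WT and 4 in each knockout. Cytochrome c1, encoded by CYC1, changed by -0.51, -0.51, -0.44 and -0.58 in the order given above. Of 54 assembly factors 24, 28, 20 and 25 were lower (44.4, 51.9, 37 and 46.3%) and 5, 6, 7 and 7 higher. Of 17 genes of the citric acid cycle and pyruvate dehydrogenase 8, 6, 7 and 8 were lower and 1, 0, 1 and 0 higher. Of 15 tested genes for electron entry, ubiquinone synthesis and cytochrome c 7, 6, 3 and 6 were lower and 2, 1, 1 and 3 higher. For this list the lower share in TFEB KO, 20%, was near the 21% of all genes. Of 11 regulators of these genes 6, 5, 5 and 6 were lower and 0, 2, 1 and 0 higher. TFAM, which binds mitochondrial DNA, changed by -0.63, -0.77, -0.45 and -0.89. NRF1 fell in WT (-0.69) and DKO (-0.76), with values of -0.22 in TFE3 KO and -0.35 in TFEB KO that were not past the test.

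HBSS gave a mixed pattern in the same cells. Of 81 members 20 were higher, against 23.6% of all genes, and 13 lower, against 24.7%, and 48 were not past the test. The median log2 fold change was 0.06, and that of all genes -0.03. This split depended on the scaling: with libraries scaled to equal totals 9 members were higher and 23 lower, and the median was -0.05. Members past the test that moved by 1 or more on the log2 scale numbered 1, COX7B2, against 13.1% of all genes. COX7B2 was at 2.14, 3.36 and 2.15 in untreated WT and at 0.460 and 0.419 with HBSS, below what 3 reads give in those libraries. HBSS and Torin1 in WT share the untreated libraries, and their values are given side by side here without comparing the lists.

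**Figure D4:**
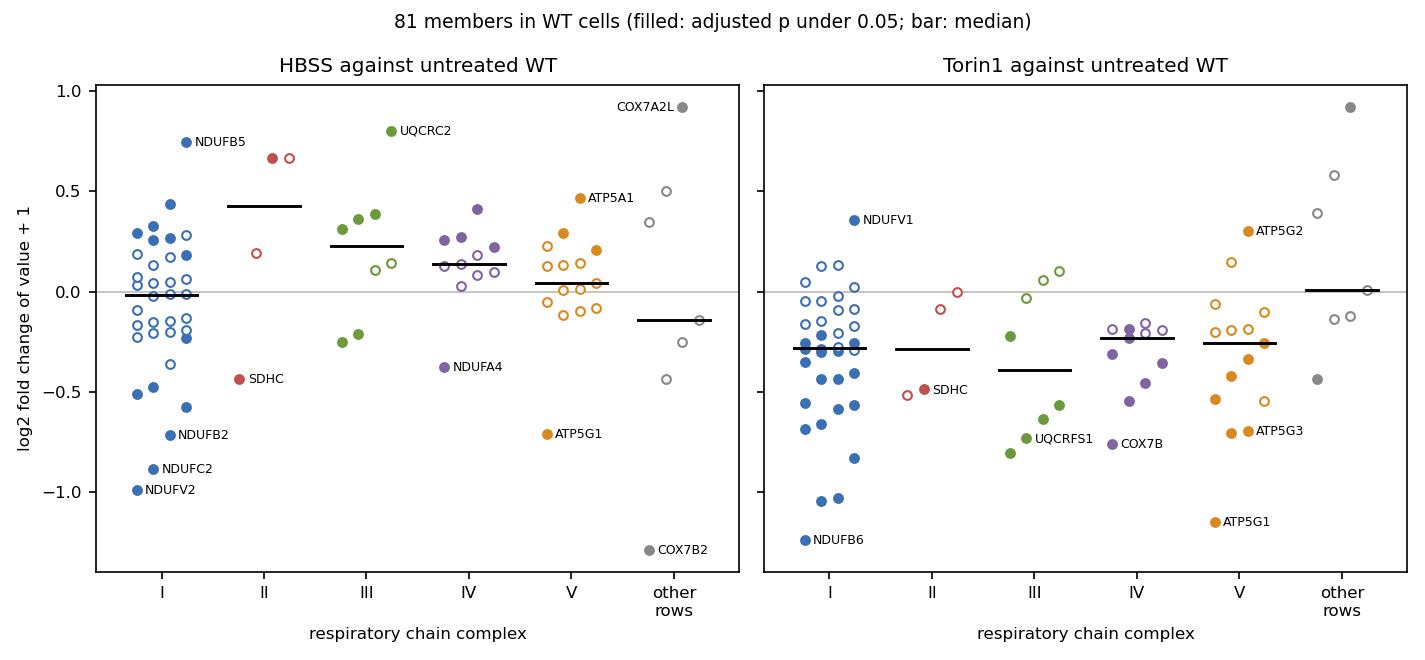
Log2 fold change of value + 1 of each member with HBSS (left) and Torin1 (right) against untreated WT, by complex. Filled points have an adjusted p under 0.05 and bars are medians, which lie at 0.43 and 0.23 for complexes II and III with HBSS and below 0 for complexes I to V with Torin1. The other rows are the members that are no established subunit.

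Some subunits of the same complex moved in opposite directions with HBSS, where 23.6% of all genes were higher and 24.7% lower. In complex II SDHA was at 131, 132 and 145 in untreated WT and at 229 and 205 with HBSS, above all untreated libraries (0.66 ± 0.09, adjusted p = 6.9e-08). SDHC was at 199, 174 and 166 without and at 140 and 125 with HBSS, below all of them (-0.44 ± 0.10, adjusted p = 0.00033). SDHB had a value of 0.19 ± 0.22 (adjusted p = 0.52). In complex III 4 of 8 subunits were higher and 2 lower. UQCRC2, a core protein, was at 223, 230 and 220 without and at 389 and 393 with HBSS (0.80 ± 0.08, adjusted p = 1e-11). UQCRC1, the other core protein, rose by 0.36 ± 0.10 (adjusted p = 0.0027) and UQCRFS1 by 0.31 ± 0.11 (adjusted p = 0.021). UQCRFS1 thus stood at 77.1 and 87.3 with HBSS and at 42.0 and 37.0 with Torin1, on either side of the untreated libraries.

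In complex I 7 of 36 subunits were higher (19.4%) and 7 lower (19.4%) with HBSS, against 23.6% and 24.7% of all genes. NDUFV2, the core subunit that lies beside NDUFV1 in the NADH module, was at 304, 261 and 288 in untreated WT and at 146 and 140 with HBSS. This was the lowest value of a member well above the detection level (-0.99 ± 0.08, adjusted p = 4.6e-14), and NDUFV2 was at 255 and 235 with Torin1 (-0.21 ± 0.08, adjusted p = 0.032). Its partner NDUFV1 was higher with HBSS (132 and 131, 0.26 ± 0.10, adjusted p = 0.037). NDUFC2 was at 41.7 and 39.3 with HBSS (-0.89 ± 0.14, adjusted p = 7.4e-07), close to its 35.9 and 36.5 with Torin1. NDUFB2, a membrane-arm subunit, was at 213, 187 and 202 without and at 117 and 127 with HBSS (-0.71 ± 0.09, adjusted p = 3.4e-09). NDUFB5, of the same arm, was at 97.3, 89.3 and 88.4 without and at 158 and 150 with HBSS (0.74 ± 0.11, adjusted p = 4.5e-07). NDUFS6 fell to 511 and 507 (-0.47 ± 0.08, adjusted p = 2.6e-06).

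In complexes IV and V most subunits were not past the test. Higher were 36.4% and 20%, against 23.6% of all genes, and lower 9.09% and 6.67%, against 24.7%. NDUFA4 was the complex IV subunit that fell, at 265 and 242 with HBSS against 379, 300 and 315 without (-0.38 ± 0.09, adjusted p = 0.00079), and 4 of 11 rose, among them COX4I1 (0.22 ± 0.07, adjusted p = 0.01) and COX6A1 (0.27 ± 0.09, adjusted p = 0.012). COX6C also rose (0.26 ± 0.11, adjusted p = 0.049) with overlapping libraries, a call lost in edgeR and DESeq2. In complex V ATP5G1 fell to 207 and 215 (-0.71 ± 0.09, adjusted p = 1.7e-08), below all untreated libraries. ATP5G2 rose (977 and 951, 0.21 ± 0.07, adjusted p = 0.018), and ATP5G3 stayed within the untreated range at 776 and 841 (0.01 ± 0.09, adjusted p = 0.96). The catalytic subunits ATP5A1 (0.47 ± 0.10, adjusted p = 0.00019) and ATP5B (0.29 ± 0.08, adjusted p = 0.0022) rose. With equal totals the rises of NDUFV1, UQCRFS1, COX4I1, COX6A1, COX6C, ATP5G2 and ATP5B were no longer past the test, while those of SDHA, UQCRC2, NDUFB5 and COX7A2L were. COX7A2L, a factor that joins complexes III and IV into supercomplexes, was at 174, 135 and 140 without and at 292 and 271 with HBSS (0.92 ± 0.10, adjusted p = 2.5e-10).

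Among the lists, 20 of 54 assembly factors were lower with HBSS (37%) and 12 higher (22.2%). Of 17 citric acid cycle genes 6 were higher (35.3%) and 1 lower (5.88%). Of 11 regulators 4 were higher (36.4%) and 2 lower (18.2%). Over all genes 23.6% were higher and 24.7% lower. PPARGC1A, the coactivator of mitochondrial biogenesis, was at 25.1, 27.7 and 29.9 in untreated WT, at 199 and 208 with HBSS and at 22.3 and 30.1 with Torin1. Its log2 fold change was 2.84 with HBSS and -0.08 with Torin1. ESRRA, a nuclear receptor that works with it, was at 65.7, 68.3 and 73.1 without and at 150 and 159 with HBSS (log2 fold change 1.15). GABPA was at 6.90, 7.03 and 11.5 without and at 16.1 and 22.8 with HBSS (1.13), and TFAM fell (-0.27). PPARGC1B, another of the regulators listed, fell (-1.06, adjusted p = 0.00014), and NRF1 had a value of -0.09 (unadjusted p = 0.64).

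Without Torin1, few members were called in the TFE3 KO and DKO clones and many in TFEB KO. In TFE3 KO 1 member was higher, against 3.57% of all genes, and 2 were lower, against 5.84%. In DKO 3 were higher, against 5.64%, and 2 lower, against 7.49%. In TFEB KO no member was higher, against 7.46%, and 26 of 81 were lower (32.1%), against 7.18%. The median log2 fold change of the members was 0.05 in TFE3 KO, 0.03 in DKO and -0.21 in TFEB KO, where that of all genes was 0.00. The 3 comparisons share the untreated WT libraries, whose control label differs from that of the knockouts.

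**Figure D5:**
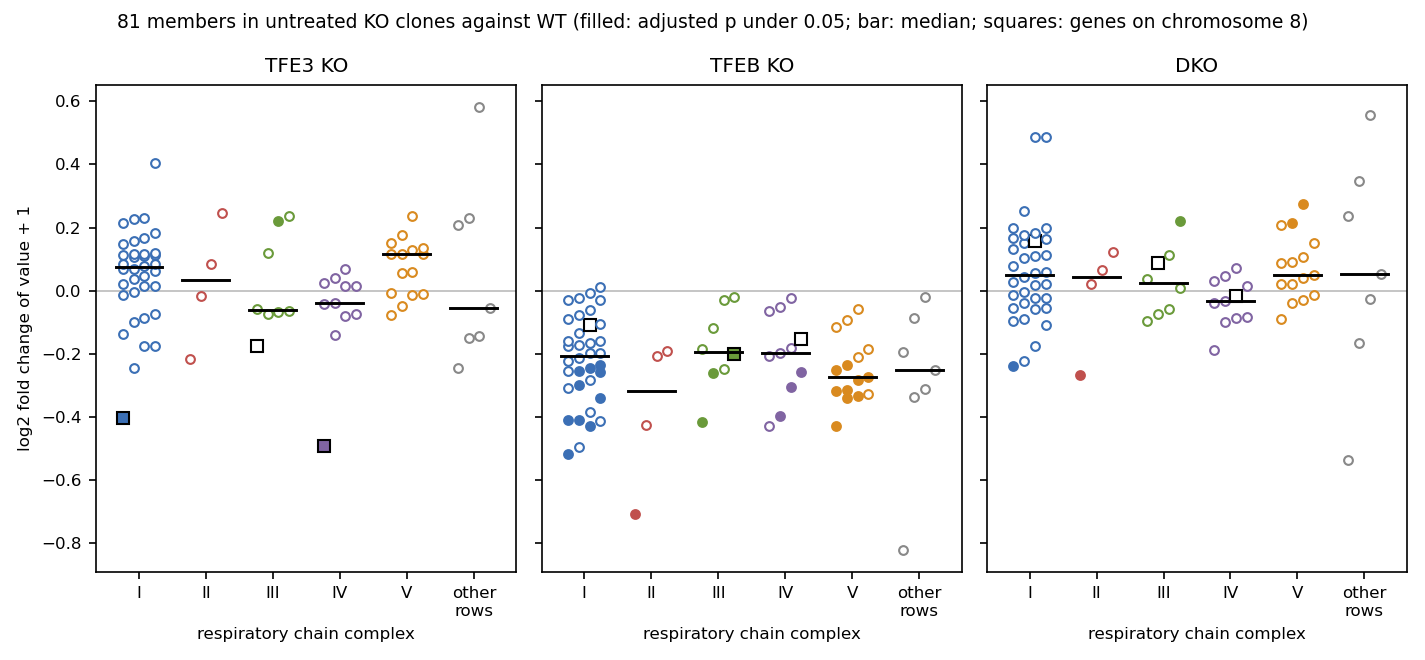
Log2 fold change of value + 1 of each member in untreated TFE3 KO, TFEB KO and DKO against untreated WT, by complex. Filled points have an adjusted p under 0.05, bars are medians and squares are members on chromosome 8. In TFEB KO the medians of all complexes lie below 0, and in TFE3 KO the 2 filled points below 0 are squares.

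In TFEB KO the lower members came from every complex: 10 of 36 in complex I, 1 of 4 in complex II, 3 of 8 in complex III, 3 of 11 in complex IV and 9 of 15 in complex V. All 4 stalk subunits of ATP synthase were among them. SDHC was at 199, 174 and 166 in untreated WT and at 104, 103 and 122 in untreated TFEB KO, with no overlap (-0.71 ± 0.09, adjusted p = 1.6e-07). NDUFV2 was at 304, 261 and 288 in WT and at 195, 207 and 194 in TFEB KO (-0.52 ± 0.07, adjusted p = 1.8e-06). ATP5G3 was at 951, 732 and 746 in WT and at 568, 644 and 582 in TFEB KO (-0.43 ± 0.08, adjusted p = 7.9e-05). Neither of these overlapped between the groups. NDUFB4, an accessory subunit of complex I, was at 240, 185 and 170 in WT and at 124, 146 and 172 in TFEB KO (-0.43 ± 0.11, adjusted p = 0.0046), where the groups overlapped.

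The number of calls in TFEB KO depended on the scaling and on WT replicate 1. With libraries scaled to equal totals 12 members were lower and the median was -0.12, and without WT replicate 1 there were 10 lower members. In both cases, as in every other setting tried, no member was higher. The same clone with Torin1 had the lowest share of reads on the 74 subunits, 1.63 to 1.68%. NRF1 was lower in untreated TFEB KO (-0.57) and PPARGC1A higher (0.44). PPARGC1A was lower in untreated TFE3 KO than in WT (-0.66) and than in untreated TFEB KO (-1.10). In TFEB KO 7 of 54 assembly factors were lower (13%), against 7.18% of all genes, and 0 higher, against 7.46%.

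Set against each other, untreated TFE3 KO was above untreated TFEB KO for most members. Of 81 members 46 were higher in TFE3 KO (56.8%), against 14.3% of all genes, and 2 lower, against 15.6%. The median log2 fold change was 0.27, with 22 of 36 members of complex I and 13 of 15 of complex V higher. NDUFB10, of the membrane arm of complex I, was at 152, 178 and 193 in TFE3 KO and at 104, 109 and 122 in TFEB KO (0.64 ± 0.09, adjusted p = 2.9e-07). SDHC was at 189, 177 and 167 in TFE3 KO (0.69 ± 0.09, adjusted p = 4.4e-08), and its libraries did not overlap with those of TFEB KO given above. NDUFB3, an accessory subunit of complex I, had the largest value (0.90 ± 0.30, adjusted p = 0.032) with a wide spread, a call lost with equal totals, at 79.8, 94.2 and 106 in TFE3 KO and 37.3, 47.8 and 66.3 in TFEB KO. The number past the test fell from 48 to 28 with equal totals, where the median was 0.18, to 30 without TFEB KO replicate 1 and to 28 without TFE3 KO replicate 3.

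Both members lower in TFE3 KO than in WT lie on chromosome 8. COX6C, a small subunit of complex IV, was at 473, 326 and 340 in WT and at 264, 253 and 281 in TFE3 KO (-0.49 ± 0.10, adjusted p = 0.00053). NDUFB9, an accessory subunit of complex I, was at 653, 543 and 580 in WT and at 447, 416 and 477 in TFE3 KO (-0.40 ± 0.07, adjusted p = 3.7e-05). Neither overlapped between the groups, and both were also the members lower in TFE3 KO than in TFEB KO. UQCRB, the other member on chromosome 8, had a value of -0.18 ± 0.07 (adjusted p = 0.078). The 410 tested genes of chromosome 8 as a whole had a median log2 fold change of -0.26 in TFE3 KO, 99 of them (24.1%) were lower and 0 higher. The medians of the other autosomes and X lay between -0.08 and 0.12 in this clone, and that of chromosome 8 was 0.02 in TFEB KO and -0.02 in DKO. How much of the lower level of these members goes with the rest of the chromosome was not tested. The member higher in TFE3 KO was UQCRC2, at 252, 258 and 274 against 223, 230 and 220 (0.22 ± 0.07, adjusted p = 0.042).

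In DKO the 5 members called made up no larger share than the background. ATP5G3 was at 922, 962 and 1040 against 951, 732 and 746 in WT, which overlapped (0.28 ± 0.08, adjusted p = 0.0097). UQCRC2 (0.22 ± 0.07, adjusted p = 0.03) and ATP5G2 (0.21 ± 0.07, adjusted p = 0.022) were also higher. SDHA was at 118, 111 and 110 against 131, 132 and 145 (-0.27 ± 0.08, adjusted p = 0.025), and NDUFS6 had a value of -0.24 ± 0.07 (adjusted p = 0.019). None of the 5 kept its call in all settings tried: the count was 0 when WT and DKO libraries were fitted alone and without WT replicate 3, 2 without DKO replicate 2, 3 without WT replicate 2, 9 with equal totals and 11 without WT replicate 1.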

How the data were processed

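Per the labels, polyA RNA was made into 3′ end libraries (QuantSeq Forward). The study's methods and processing notes give trimming (cutadapt 2.10), alignment to hg38 (STAR 2.7.8a), quality control (FastQC 0.11.9) and edgeR. The deposited table holds an expression signal for 13523 genes, normalised by the authors with edgeR per the study's methods; the counter, the exact scaling and the gene filter are not given in the sources used here. In each library 100% of values were whole multiples of the value of 1 read, within 0.01 read, which gave the depth. Groups came from the labels. The members and gene lists were chosen with earlier results of these data known.

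The 13052 genes that reached a value of 1 in 3 or more libraries were tested with limma 3.58.1 (trended, robust, pseudocount of 1, Benjamini-Hochberg adjustment) in 1 fit of 9 groups and 25 libraries, after tests on simulated data. Count tests in edgeR 4.0.16 and DESeq2 1.42.0 on recovered reads were alternatives. Genes named are 10 core subunits, subunits with paralogs, the 3 highest and 3 lowest members past the test with a mean of at least 5 per comparison (1 for differences between effects) and regulators; others are named as such. Promoters came from RefSeq and coordinates from GENCODE on hg38. R 4.3.3 and Python 3.11.15 were used.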

Additional observations from a re-analysis of the deposited data

Results flagged for a closer look

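COX7B was singled out because its Torin1 effect differed between TFEB KO and WT in the test of the difference itself. The difference was 0.42 on the log2 scale of value + 1 (limma, adjusted p = 0.036), with a fall in both genotypes. In edgeR and DESeq2 on recovered reads COX7B was also the 1 member called, and 10 members had an unadjusted p under 0.05. The call was lost with the duplicated column counted as WT Torin1, with the compared libraries fitted alone and without several single libraries named above.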

How the results depend on the processing

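Counts of members past the test kept within 1.5 times their value in 176 of 198 alternatives. Torin1 in WT gave 44 calls and 24 with the duplicated column counted as WT Torin1. That column lay nearer HBSS for the genes given below. With libraries scaled to equal totals, TFEB KO against WT went from 26 to 12, DKO against WT from 5 to 9 and TFE3 KO against TFEB KO from 48 to 28. With the compared libraries fitted alone DKO against WT gave 0, as did the difference in Torin1 effect between TFEB KO and WT, from 1, which was also 0 with the duplicated column. Leaving out 1 library at a time gave 10 to 28 for TFEB KO against WT (10 without WT replicate 1), 0 to 11 for DKO against WT, 28 to 48 for TFE3 KO against TFEB KO and 0 to 3 for the difference in TFEB KO (3 without TFEB KO replicate 3), and 33 to 46 for Torin1 in WT. The causes were not tested.

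Of 4389 values of named members under these settings 108 lost their call, 28 gained one and none called in either fit changed sign. Calls kept in every setting numbered 19 of 33 with HBSS, 30 of 41 for Torin1 in TFE3 KO, 29 of 47 in TFEB KO and 31 of 41 in DKO, and in WT 19 of 44, or 28 without the settings that use the duplicated column. They numbered 2 of 3 for TFE3 KO, 9 of 26 for TFEB KO and 0 of 5 for DKO against WT, and 23 of 48 for TFE3 KO against TFEB KO. Replicate numbers did not pair the libraries: over 92 pairs with the same number the deviations correlated with a median r of 0.01, and 14 pairs were over 0.1. With the replicate block 36 members were past the test for HBSS, 47 for Torin1 in WT and 28 for TFEB KO against WT. Depth limits ATP5L2, COX7B2, UQCRHL and NDUFB2-AS1, which rest on few reads, and groups of 2 libraries limit HBSS and WT Torin1.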

Other observations

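The column left out because it carries 2 labels, HBSS replicate 3 and WT Torin1 replicate 1, held the following values, which enter only the alternatives that use it. ATP5G1 was at 213, NDUFV2 at 159, SDHA at 231, UQCRC2 at 430, COX7A2L at 275, NDUFS6 at 546 and COX7B at 455. In the same order, the means of the HBSS libraries kept were 211, 143, 217, 391, 282, 509 and 418. Those of the WT Torin1 libraries kept were 155, 245, 128, 240, 149, 347 and 218. Each of these values of the column lay nearer the HBSS mean. It held 12917 detected genes, beside 12895 and 12901 with HBSS and 13188 and 13181 with Torin1. Which label is right was not tested.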
